A study of Mus musculus with 8 samples.

Results

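The 4 female NOD mice whose pancreas RNA was hybridized on the second of 2 array slides (replicates 5 to 8) were compared with the 4 on the first slide (replicates 1 to 4), across all detected genes. They are 4 of the 8 NOD mice measured, grouped by the slide that carried them. The study set the pancreas of pre-diabetic NOD mice against that of diabetes-resistant NOD.B10 mice. Each NOD mouse had its own two-color array, on which its RNA was labeled red (Cy5) and 1 common RNA pool from 8 NOD.B10 mice was labeled green (Cy3), and the dyes were never exchanged. All NOD mice were inbred NOD/LtJ females aged 12 weeks, an age at which immune cells already infiltrate the islets. The pool came from females of the same age of the strain NOD.B10Sn-H2b/J, which carries the H2b haplotype of the major histocompatibility complex on the NOD background and does not develop diabetes. Nothing in the labels separates the mice of the 2 slides: strain, sex, age, tissue and pool were the same and no mouse received a treatment. The day and the time of day of tissue collection and the cages and litters are not given in the sources used here. Mouse, hybridization and scan go together with the slide and cannot be told apart.

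The circadian clock is a transcriptional loop that runs in nearly every cell, pancreas included. Clock and Arntl (Bmal1) pair to activate their targets, among them the period and cryptochrome genes that shut the pair off and the nuclear receptors Nr1d1 and Nr1d2 (Rev-erb alpha and beta) that repress Arntl. Output factors such as Dbp and Tef swing over the day in antiphase with Arntl and Nfil3. Acinar cells, which make the digestive enzymes and form most of the organ, depend on chaperones of the endoplasmic reticulum (ER) such as Hspa5 (BiP) to fold what they secrete, and the unfolded protein response raises these chaperones when the load grows.

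Values are log2 ratios of NOD mouse over pool, so that 0 is the level of the pool, 1 is a doubling and a difference between slides is slide 2 minus slide 1. The same pool was on all 8 arrays. The 2 slides did not give signals of equal quality. Red signals were well above background, which here means detected, at 13060 to 15304 spots per array on slide 1 and at 9375 to 14696 on slide 2. Background-subtracted red signals varied by a median coefficient of 16.1% to 24.8% on slide 1 and of 38.2% to 63.5% on slide 2. In the fully processed red signals it was 7.36% to 8.28% on slide 1 and 11.7% to 14.1% on slide 2. On slide 2 the software did not rate the spot grid as good for replicates 5, 6 and 7. The root mean square of the trend surface removed from the red signal was 0.13 to 0.21 on slide 1 and 0.36 to 0.60 on slide 2. All 10 spike-in transcripts read lower on slide 2, by 0.13 to 0.43 on the log2 scale, with a mean of 0.20 on slide 1 and -0.07 on slide 2 (exact two-sided permutation p = 0.0286, the smallest that 4 against 4 arrays can give). Ratios across probes correlated at 0.646 to 0.801 in the 6 pairs of arrays within slide 1, at 0.372 to 0.69 in the 6 pairs within slide 2 and at 0.216 to 0.526 in the 16 pairs between slides, all of which share the pool.

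Of 9480 probes with red signal well above background on at least 3 of the 4 arrays of each slide, 1437 (15.2%) differed between the slides at an adjusted p under 0.05 (limma, Benjamini-Hochberg adjustment). They comprised 762 higher (8.04%) and 675 lower (7.12%) on slide 2. The total fell to 562 without replicate 2, and to 951, 799, 856 and 845 without replicates 1, 3, 4 and 7. At the gene level, with 1 probe per gene, 1207 of 7926 genes were called (15.2%), 647 higher (8.16%) and 560 lower (7.07%). The median difference of all probes was 0.02, and the median size of a called difference was 0.63. Only 128 called probes reached 2-fold, 68 higher and 60 lower. The size of the difference was above that of every spike-in for 1342 called probes, 712 higher and 630 lower. Each spike-in value is a mean of 32 spots per array, while only 245 of 41174 probes have more than 1 spot. The spike-ins thus do not show the noise of a single spot. At 471 called probes the slides lay on opposite sides of the pool on all 8 arrays: 261 were above the pool on slide 1 and below it on slide 2, and 210 the reverse. With ratios centered on the spike-ins instead, 93.6% of the calls were in the higher direction against 53.0% as reported, with the median of all differences at 0.288 in place of 0.02. With background-subtracted signals that were not divided by the trend surface the share was 37.4%, so directions of small differences depend on the scaling. Called genes whose sign turned are marked below. The p-values measure the spread between the arrays of a slide, in which differences between mice and array noise go together. In RNA of a whole organ fewer cells of a type and less RNA per cell cannot be told apart.

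**Figure D1:**
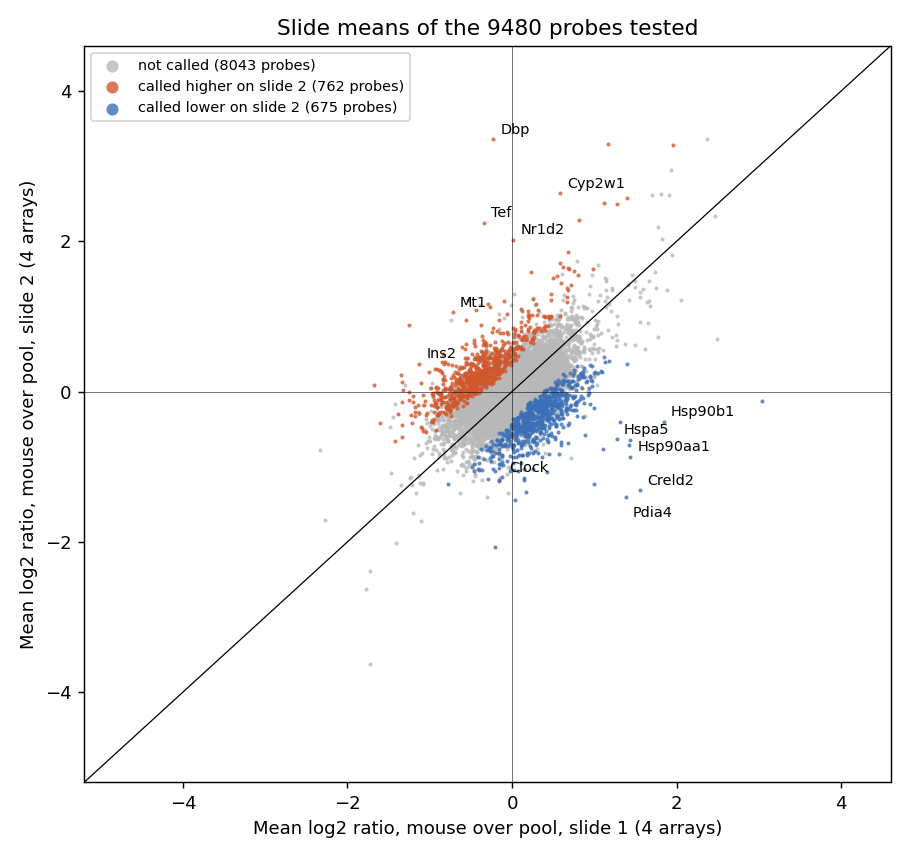
Mean log2 ratio (NOD mouse over NOD.B10 pool) of each tested probe on slide 1 (x axis) and slide 2 (y axis), 4 arrays per slide, with called probes colored by direction and named genes labeled. Most of the 9480 probes lie near the diagonal, while Dbp, Tef and Nr1d2 stand far above it and Creld2, Pdia4 and Hspa5 far below.

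Among genes tested with the main filter, the clock output genes Dbp and Tef gave the 2 largest rises on slide 2, and Nr1d2 was also among the 10 largest. Dbp, a PAR bZIP transcription factor driven by the clock (probe at chr7:45577937-45577996, mm8), had log2 ratios of -0.10, -0.59, -0.27 and 0.06 on slide 1 and of 3.37, 3.36, 3.33 and 3.38 on slide 2. All 4 mice of slide 1 were near the pool, and all 4 of slide 2 were far above it and close to each other. The difference of 3.58 ± 0.14 (SE, n = 4 per slide) is 12.0-fold (limma adjusted p = 1.62e-06). The pool itself also read higher at this probe on slide 2, by 1.92, and the red signal alone differed by 5.48. Tef, the close relative of Dbp (chr15:81653753-81653812), had ratios of -0.32, -0.47, -0.24 and -0.34 on slide 1 and of 2.17, 2.62, 2.11 and 2.09 on slide 2. Here too the slides were far apart, with replicate 6 the highest. Tef was higher by 2.59 ± 0.14, or 6.03-fold (limma adjusted p = 1.61e-05). Nr1d2, the nuclear receptor that represses clock genes (chr14:16997805-16997864), read 0.11, -0.14, -0.01 and 0.09 on slide 1 and 1.94, 2.22, 1.89 and 2.04 on slide 2. It lay at the level of the pool in every mouse of slide 1 and above it in every mouse of slide 2, by 2.01 ± 0.12 or 4.03-fold (limma adjusted p = 2.73e-05). The calls of these genes held under every alternative, but sizes did not. With normexp background correction (offset 50) and loess, Tef was higher by 1.07 and Nr1d2 by 0.53. With background-subtracted signals, Tef was higher by 2.09 and Nr1d2 by 1.40. Neither alternative divides by the trend surface, and the cause of the smaller sizes was not tested.

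Clock, the activating partner of Arntl, moved the other way. Its ratios were -0.12, -0.01, -0.14 and -0.20 on slide 1 and -1.23, -0.59, -1.58 and -1.16 on slide 2, so that every mouse of slide 2 was below every mouse of slide 1. The fall of 1.02 ± 0.19 (limma adjusted p = 0.00816) was 0.35 and not called with normexp and loess (adjusted p = 0.0762). Bhlhb2 (Bhlhe40, Dec1), a clock-controlled repressor, was higher by 0.61 ± 0.17 (limma adjusted p = 0.0404), a call lost without any 1 of replicates 1 to 7, and it turned to -0.14 with background-subtracted signals and to -0.03 with normexp and loess. Per1, the period gene that was detected well enough to test, was not called, at 0.16, 0.62, 0.45 and 1.33 on slide 1 and 0.61, 1.74, 0.66 and 1.10 on slide 2. The slides overlap for Per1, and its difference was 0.39 ± 0.29 (limma adjusted p = 0.389). The casein kinases that set the speed of the clock, Csnk1d at -0.25 and Csnk1e at 0.15, were not called, and neither sign held under all alternatives. Of the output genes listed, Tsc22d3 (-0.20), Por (-0.16), Pbef1 (Nampt, -0.37), Herpud1 (-0.65) and Tspan4 (0.35) were not called. In all, the core clock list had 6 of 18 genes tested, 2 higher and 1 lower, with a median of 0.27. The output list had 7 of 15 tested, 2 higher and none lower (28.6% called), with a median of -0.16. Over all genes tested 15.2% were called and the median was 0.03.

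**Figure D2:**
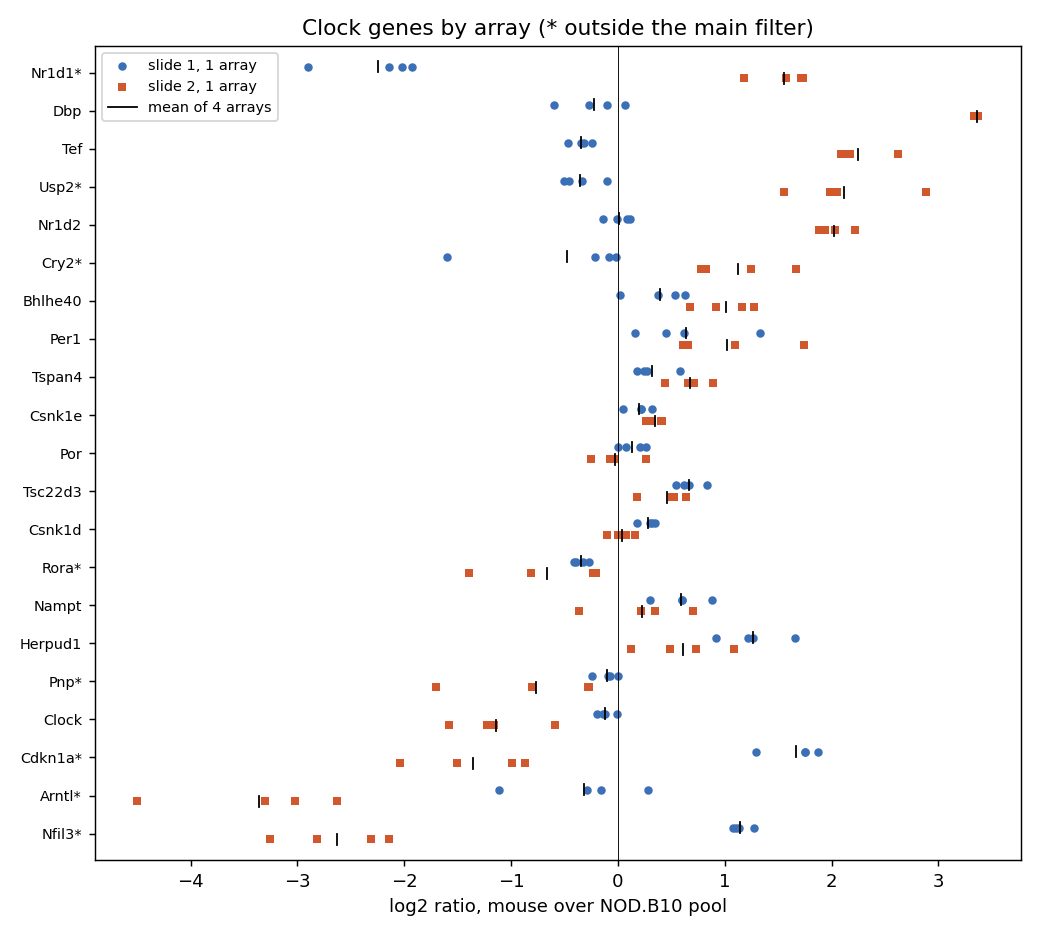
Log2 ratio (NOD mouse over pool) of the clock genes reported on each of the 8 arrays, 1 point per mouse, with a line for the mean of each slide and a star at genes outside the main filter. Dbp, Tef, Nr1d2, Nr1d1 and Usp2 are high on slide 2 and Clock, Arntl, Nfil3 and Cdkn1a low, while Per1 overlaps between the slides.

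Another 9 clock genes were detected mainly on 1 slide and pass only a looser filter, red signal well above background on at least 4 of the 8 arrays. Such a gene enters through the slide where it is high, so its direction was set by the filter, and its values are given as a description with no test. That filter called 1169 of 12885 probes (9.07%), 520 higher (4.04%) and 649 lower (5.04%), and nothing is read from it for these genes. On the slide where such a gene was not detected its red value follows the background, or a stand-in value that the software writes for it, so the size of the difference is uncertain. Nr1d1, the partner of Nr1d2 (chr11:98585302-98585804), was detected on all 4 arrays of slide 2 and on none of slide 1, where 2 of the 4 values rest on stand-ins. It read -1.93, -2.02, -2.14 and -2.90 on slide 1 and 1.57, 1.72, 1.73 and 1.18 on slide 2. Every mouse of slide 2 was above the pool and every mouse of slide 1 below. For Nr1d1 the difference of 3.80 was 3.26 with background-subtracted signals and 0.50 with normexp and loess. Its 2 other probes were detected on 1 and 3 of the 8 arrays and overlapped between slides, with means of -0.58 and 0.95 on slide 1 and of 0.29 and 0.72 on slide 2, the latter probe thus running the other way. Usp2, a clock-controlled ubiquitin protease, read -0.51, -0.10, -0.34 and -0.46 on slide 1 and 2.05, 2.89, 1.99 and 1.56 on slide 2. It was detected on 1 array of slide 1 and 4 of slide 2. The difference of 2.47 was 2.81 with background-subtracted signals and 1.12 with normexp and loess. Cry2, a cryptochrome that represses Clock and Arntl, read -0.08, -0.22, -1.60 and -0.02 on slide 1, where it was not detected, and 0.83, 1.67, 1.25 and 0.78 on slide 2. The difference of 1.61 was 2.46 with background-subtracted signals and 0.55 with normexp and loess. A second Cry2 probe, detected on 0 of the 8 arrays, went the other way, with means of -0.08 on slide 1 and -1.33 on slide 2.

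The following genes entered through slide 1, as did most genes detected on 1 slide alone. Arntl (chr7:113104645-113104704) read -0.15, -0.29, 0.29 and -1.11 on slide 1 and -2.63, -4.50, -3.30 and -3.02 on slide 2. It was well above background on 4 arrays of slide 1 and none of slide 2, where 3 of the 4 values rest on stand-ins. The difference of -3.05 was -3.39 with background-subtracted signals and -0.40 with normexp and loess. Nfil3 (E4bp4), the repressor that competes with Dbp and Tef for their sites, read 1.27, 1.13, 1.11 and 1.08 on slide 1 and -2.82, -2.31, -2.14 and -3.26 on slide 2. It was detected on 4 arrays of slide 1 and 1 of slide 2. For Nfil3 the difference of -3.78 was -4.05 with background-subtracted signals and -1.45 with normexp and loess. Its second probe, detected on slide 1 only and with stand-ins for all 4 values of slide 2, gave -3.22. The cell cycle inhibitor Cdkn1a (p21) read 1.30, 1.75, 1.87 and 1.75 on slide 1 and -0.99, -0.87, -1.51 and -2.04 on slide 2, where it was detected on 1 array. Its difference of -3.02 was -3.41 with background-subtracted signals and -1.23 with normexp and loess. Pnp differed by -0.66 and Rora by -0.31, while another Rora probe that passed the looser filter differed by 0.10, the other way. The remaining 11 of 33 listed clock genes were too weak for either filter.

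Chaperones of the ER gave 5 of the 10 largest falls among called genes with a symbol and without overlap between the slides. Of 24 listed, 23 were tested and 13 called (56.5%, against 15.2% of all genes), 12 lower and 1 higher, with a median difference of -0.69. Creld2, a stress-inducible protein of the ER, read 2.04, 2.00, 0.98 and 1.21 on slide 1 and -1.34, -1.35, -1.40 and -1.17 on slide 2. It was above the pool in all mice of slide 1 and below it in all mice of slide 2, a difference of -2.87 ± 0.23 or 7.32-fold (limma adjusted p = 0.000235). Pdia4 (ERp72), a disulfide isomerase, read 1.66, 1.68, 1.29 and 0.89 on slide 1 and -1.20, -1.53, -1.42 and -1.45 on slide 2. Its difference of -2.78 ± 0.18 (limma adjusted p = 4.83e-05) again crossed the level of the pool. Hsp90b1 (Grp94), the Hsp90 of the ER, read 2.09, 2.25, 1.65 and 1.37 on slide 1 and -0.60, -0.52, -0.18 and -0.29 on slide 2, a difference of -2.24 ± 0.20 (limma adjusted p = 0.000403). Hyou1 (Grp170), which exchanges the nucleotide of Hspa5, read 1.57, 1.70, 1.37 and 1.03 on slide 1 and -0.98, -0.72, -0.39 and -0.75 on slide 2. It was lower on slide 2 by 2.13 ± 0.17 (limma adjusted p = 0.000235). Hspa5 itself (chr2:34598119-34598178) read 1.47, 1.62, 1.07 and 0.94 on slide 1 and -0.94, -0.63, -0.19 and -0.77 on slide 2. No mouse overlapped, and Hspa5 was 3.75-fold lower on slide 2, a difference of -1.91 ± 0.20 (limma adjusted p = 0.00102) that came down to -0.92 with normexp and loess (adjusted p = 0.0499).

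Smaller falls were seen for lectin chaperones and further folding enzymes. Calr (calreticulin) read 0.55, 0.74, 0.84 and 0.57 on slide 1 and -0.95, -0.28, -0.40 and -1.10 on slide 2, a fall of 1.36 ± 0.19 (limma adjusted p = 0.00324). Pdia3 (-1.21), the isomerase that works with it, Armet (Manf, -1.12), a secreted ER stress factor, and Pdia6 (-0.69) were called lower as reported, but none of these was called with background-subtracted signals or with normexp and loess. Sdf2l1 (-0.81) and the Hspa5 cochaperone Dnajb11 (-0.72) were called lower, but not with arrays centered on the spike-ins (-0.54 and -0.45). The call of Sdf2l1 was also lost without replicate 2. Canx (calnexin), the membrane-bound lectin chaperone, was lower by 0.47 ± 0.10 (limma adjusted p = 0.015), and its sign turned to 0.23 and 0.26 under those 2 alternatives. The one member called higher, the prolyl isomerase Fkbp2 (0.54 ± 0.12, limma adjusted p = 0.0162), likewise turned to -0.42 and -0.31. The members not called included P4hb (0.03), the most general disulfide isomerase, its oxidases Ero1l (0.09) and Ero1lb (-0.07), the cochaperones Dnajb9 (-0.78), Dnajc3 (-0.30) and Dnajc10 (-0.04), and Txndc5 (-0.33), Ppib (-0.10), Fkbp11 (0.15) and the pancreas-specific Pdia2 (0.29). These are the values of the brightest probe: the 3 other probes of Dnajc3 were called lower, at -0.92, -0.83 and -0.57, and so was another probe of Ero1lb (Ero1b), at -0.62. Conversely, neither other probe of Canx (-0.54 and -0.36) was called, nor the other probe of Fkbp2 (0.51). The count of members called lower was 9 with normexp and loess, 11 on the red signal alone and 10 to 13 with any 1 mouse left out. Centered on the spike-ins, Canx, Pdia6, Sdf2l1 and Dnajb11 lost the call.

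**Figure D3:**
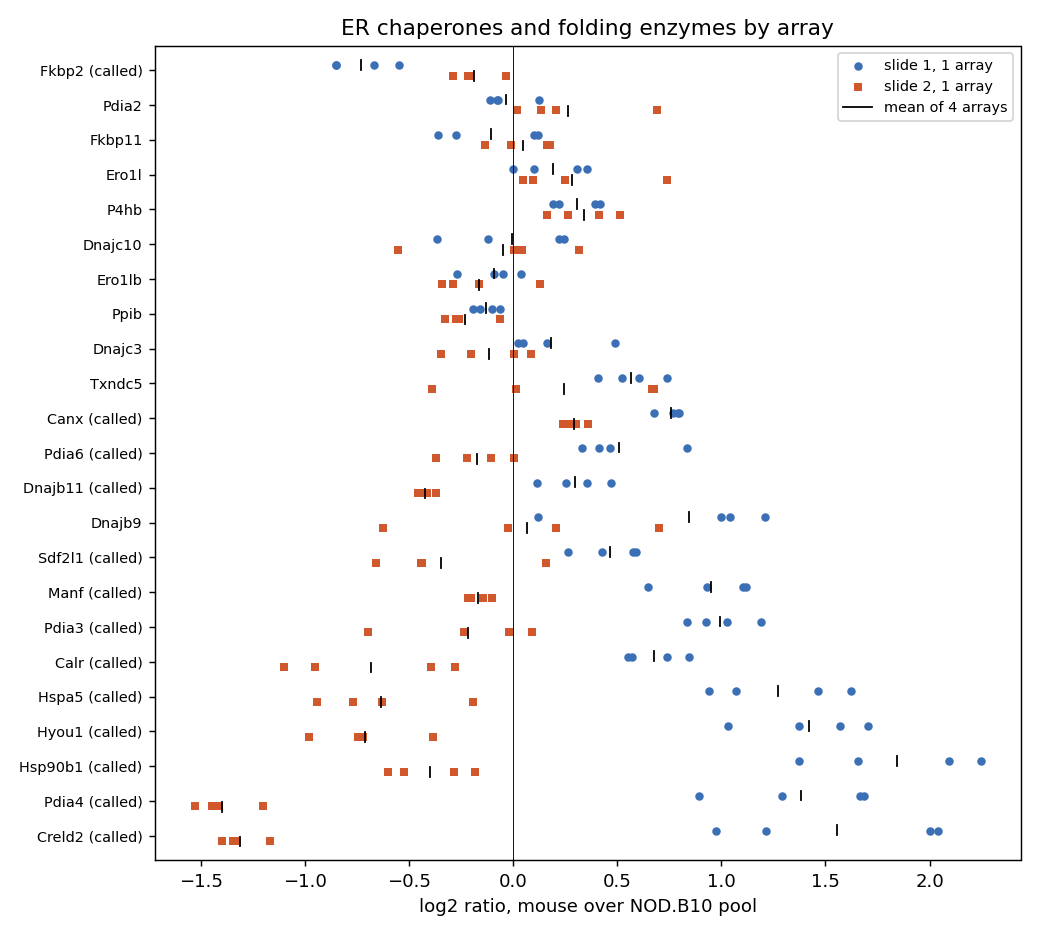
Log2 ratio (NOD mouse over pool) of the 23 tested ER chaperones and folding enzymes on each of the 8 arrays, 1 point per mouse, with a line for the mean of each slide. Creld2, Pdia4, Hsp90b1, Hyou1, Hspa5 and Calr lie above the pool in all mice of slide 1 and below it in all mice of slide 2.

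The ER stress element, spelled CCAAT and CCACG with 9 bases of any kind between them, is the promoter site through which the unfolded protein response is known to act, and it was searched on both strands in the 250 bases before the annotated start of each gene (RefSeq, GRCm38.p6). It occurred in 35 of 27025 promoters (0.13%) and in 16 of the 5828 that belong to tested genes (0.275%). Of 547 matched genes with a probe called higher on slide 2 it occurred in 0, and of 470 with a probe called lower in 10 (2.13%): Calr, Canx, Creld2, Dnajc3, Ero1b, Hnrnpa3, Hsp90b1, Hspa5, Pdia6 and Syvn1. Within the chaperone list 21 genes had a promoter entry and 8 held the element (38.1%), 6 of them among the 10 called lower. Motifs of the clock were searched in the same windows. The E-box CACGTG occurred in 10.4% of tested genes, in 9.87% of those called higher and in 13.2% of those called lower. The RORE, TAGGTCA, occurred in 2.21%, 1.1% and 1.91%, and the D-box, TTATG and AA with 1 base of any kind between them, in 2.42%, 2.38% and 0.638%. Of 19 clock genes with an entry 3 held the E-box, 1 the RORE and 1 the D-box. Over all promoters the shares were 6.86%, 2.55% and 3.63%. The promoters of 4 chaperones that were lower on slide 2 are printed to show the element beside the values above, 5′ to 3′ on the strand of the gene, with the element in capitals. It starts 126 bases before the start site in Creld2 (chr15:88819396-88819645, plus strand), 65 bases before it in Hspa5 (chr2:34771840-34772089, plus strand), 162 bases before it in Calr (chr8:84846932-84847181, minus strand), and it occurs at 2 places in Hsp90b1 (chr10:86705445-86705694, minus strand). A match is a description of these letters and no evidence of binding.
Creld2: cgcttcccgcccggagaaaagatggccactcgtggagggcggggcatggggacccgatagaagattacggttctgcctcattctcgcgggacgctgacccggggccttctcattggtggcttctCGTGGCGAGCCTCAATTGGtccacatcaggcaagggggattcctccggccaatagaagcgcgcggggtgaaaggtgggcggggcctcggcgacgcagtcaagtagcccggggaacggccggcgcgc
Hspa5: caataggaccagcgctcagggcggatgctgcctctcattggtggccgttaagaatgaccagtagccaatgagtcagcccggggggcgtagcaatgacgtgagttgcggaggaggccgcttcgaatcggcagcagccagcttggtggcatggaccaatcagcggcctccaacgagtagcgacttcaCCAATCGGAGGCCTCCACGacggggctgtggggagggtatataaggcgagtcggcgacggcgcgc
Hsp90b1: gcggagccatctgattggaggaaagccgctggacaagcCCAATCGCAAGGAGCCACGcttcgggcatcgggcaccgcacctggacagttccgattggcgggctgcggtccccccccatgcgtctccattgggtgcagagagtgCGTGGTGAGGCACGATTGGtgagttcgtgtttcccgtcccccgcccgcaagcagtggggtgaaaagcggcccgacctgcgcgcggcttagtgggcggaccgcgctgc
Calr: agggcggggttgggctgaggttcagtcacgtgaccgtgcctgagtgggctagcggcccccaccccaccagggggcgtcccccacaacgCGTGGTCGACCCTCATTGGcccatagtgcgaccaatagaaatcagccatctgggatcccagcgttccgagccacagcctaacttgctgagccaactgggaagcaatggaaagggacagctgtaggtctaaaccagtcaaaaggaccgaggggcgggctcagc

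Of 16 heat shock genes tested, 10 were called (62.5%, against 15.2% of all genes), 9 lower and 1 higher, with a median of -0.59. Hsp90aa1, the inducible cytosolic Hsp90, read 1.40, 1.35, 1.92 and 1.09 on slide 1 and -0.97, -0.92, -0.90 and -0.67 on slide 2. Every mouse of slide 1 was above the pool and every mouse of slide 2 below it, a difference of -2.30 ± 0.17 (limma adjusted p = 0.000158). Hsp110 (Hsph1), a nucleotide exchange factor, read 1.15, 1.08, 0.53 and 1.22 on slide 1 and -1.14, -0.87, -2.07 and -0.83 on slide 2 (difference -2.22 ± 0.27, limma adjusted p = 0.0018). Hspa8, the constitutive Hsp70, was lower by 1.72 ± 0.16 (limma adjusted p = 0.000716), from 0.98 to 1.71 on slide 1 to between -0.51 and -0.35 on slide 2. The other members called lower were Dnajb1 (-0.93), Hsp90ab1 (-0.83), Dnaja1, Chordc1 and the mitochondrial pair Hspe1 and Hspd1. Cryab, a small heat shock protein, was the one called higher, at 0.82 ± 0.15 (limma adjusted p = 0.00743), and it was at -0.01 with background-subtracted signals. Hspa1a, the heat-inducible Hsp70, was detected on slide 1 only. It read 1.20, 4.46, 1.21 and 4.31 there and -1.26, -1.43, -0.74 and -1.08 on slide 2, with replicates 2 and 4 high above replicates 1 and 3. All 4 values of slide 2 rest on stand-ins, and the difference of -3.92 is given with no test. It was -4.33 with background-subtracted signals and -1.56 with normexp and loess. The heat shock element, searched as GAA, TTC and GAA with 2 bases of any kind between neighbors, stood in the promoters of Hspd1 and Hspe1 among 10 heat shock genes with an entry and in 0.514% of all promoters.

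The neighbors of the chaperones in the secretory pathway had medians closer to 0. Of 14 genes of ER stress sensing and ER-associated degradation, 4 were called lower and 1 higher (35.7%, against 15.2% of all genes), with a median of -0.36. Syvn1 (Hrd1), the ubiquitin ligase of the ER membrane, read 0.53, 0.69, 0.17 and 0.97 on slide 1 and -0.52, -0.66, -0.88 and -0.76 on slide 2, and was lower by 1.30 ± 0.17 (limma adjusted p = 0.00247). Its partner Sel1l was lower by 1.11 ± 0.16 (limma adjusted p = 0.00344). The lectin gene 4632413K17Rik (Os9) was called higher by 0.41 at 1 probe and read -0.10 at another. Of 24 genes of translocation and vesicle transport 2 were higher and 3 lower (20.8%), with a median of -0.06. Sec24d, a COPII coat protein, was lower by 0.93 ± 0.13 (limma adjusted p = 0.00336) and the translocon protein Ssr1 by 0.57. The signal peptidase subunit Spcs1 (0.54) and Ssr4 (0.39) were higher, and both turned sign with background-subtracted signals, to -0.03 and -0.56. Without any 1 of 8 mice for Ssr4, 6 for 4632413K17Rik, 5 for Ssr1 and 2 for Spcs1 the call was lost, and other probes of Sel1l (-0.44) and Ssr1 (-0.11) were not called. Of 31 genes of the amino acid response and of tRNA charging 7 were lower and 2 higher (29.0%), with a median of -0.31. Those lower included Psph (-1.10) and Psat1 (-0.80), enzymes of serine synthesis, and those higher were the tryptophan tRNA synthetase Wars (0.54) and the glycine transporter Slc6a9 (0.58). The call of Slc6a9 was lost without any 1 of replicates 1 to 7 and that of Psat1 without any 1 of replicates 1, 2, 3, 5 and 6, and another probe of Wars, at 0.56, was not called (limma adjusted p = 0.112), nor was another of Psph, at -0.63. Wars was not called with background-subtracted signals or with normexp and loess, and over the alternatives its difference was as little as 0.24.

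**Figure D4:**
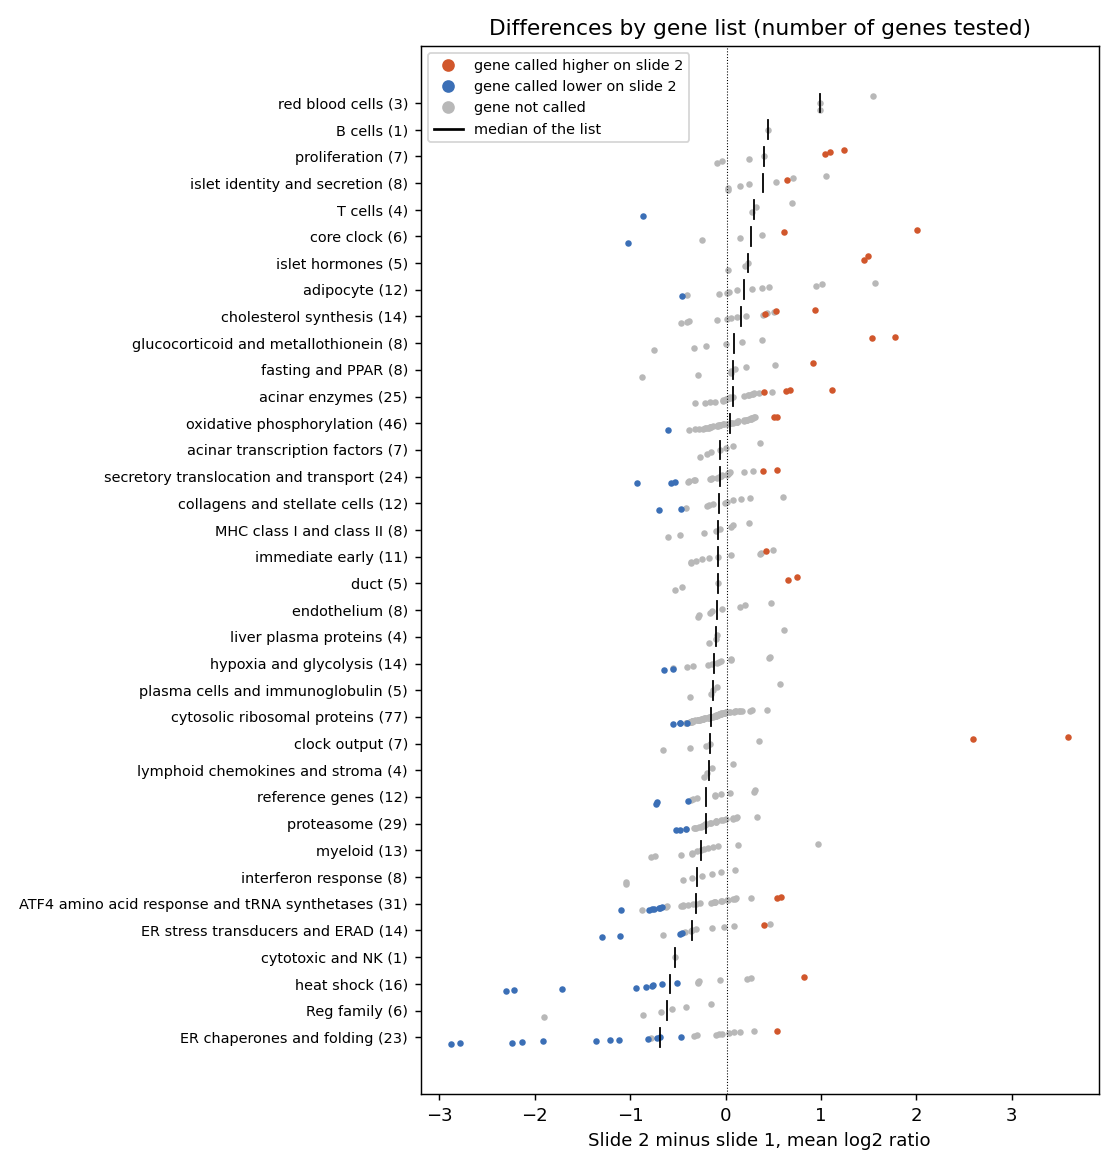
Difference of the log2 ratio between slides (slide 2 minus slide 1) for the tested genes of each list, 1 point per gene, with a bar at the median of the list and called genes colored by direction. ER chaperones and heat shock genes have medians of -0.69 and -0.59, whereas acinar enzymes, ribosomal proteins and oxidative phosphorylation have medians of 0.08, -0.15 and 0.05.

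Beyond the clock, the largest rises within the main filter came from a mixed set of genes. Cyp2w1, a cytochrome P450, read 0.92, 0.31, 0.20 and 0.89 on slide 1 and 2.57, 1.85, 3.01 and 3.12 on slide 2 (difference 2.06 ± 0.28, limma adjusted p = 0.00277). The genes D130058I21Rik (Smtnl2, 2.14) and 4933421I07Rik (2.13) rose as much, the former from between -1.70 and -1.01 on slide 1 to between 0.48 and 1.24 on slide 2. With normexp and loess the differences were 0.78 for Cyp2w1, 0.67 for 4933421I07Rik and 0.40 for D130058I21Rik, the last not called (adjusted p = 0.0595). The metal-binding metallothionein Mt1 read -0.57, -1.69, -0.66 and 0.03 on slide 1 and 0.97, 1.54, 0.73 and 0.98 on slide 2, a rise of 1.78 ± 0.32 (limma adjusted p = 0.00789), while its other probe, at 1.39, was not called (adjusted p = 0.0503). Mt2 rose by 1.53 ± 0.28 (limma adjusted p = 0.0089) and was not called with normexp and loess (adjusted p = 0.0608). These were the 2 called of 8 tested glucocorticoid and metallothionein genes (against 15.2% of all genes). The zinc transporter Slc30a2 was higher by 1.76 ± 0.17 (limma adjusted p = 0.000766), but with normexp and loess the difference was 0.03. Cml4 (Nat8), an acetyltransferase, was higher by 1.58, and was not called with background-subtracted signals (adjusted p = 0.377). Among called genes without overlap between the slides, the largest falls outside the chaperones were Rhobtb1 (-1.87 ± 0.23, limma adjusted p = 0.00186), an adaptor of a ubiquitin ligase, and Hkdc1 (-1.51 ± 0.24, limma adjusted p = 0.00495), a hexokinase. Rhobtb1 read -0.01, -0.15, 0.05 and -0.71 on slide 1 and -1.45, -2.29, -2.39 and -2.16 on slide 2.

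The tissue was pancreas on both slides. All 25 acinar enzyme genes with a probe, of 28 listed, were detected on all 8 arrays, and their summed red signal was 5674000 to 6838000 on slide 1 and 6029000 to 9622000 on slide 2. Of the 25, 4 were called higher and none lower (16.0%, near the 15.2% of all genes), with a median of 0.08. Ela2a (Cela2a), an elastase, read -0.53, -0.42, -0.44 and -0.47 on slide 1 and 0.43, 0.82, 0.76 and 0.56 on slide 2, higher by 1.11 ± 0.12 (limma adjusted p = 0.00107), yet at -0.06 with background-subtracted signals. The chymotrypsin-like Ctrl was higher by 0.68 and likewise turned, to -0.07, a call lost without any 1 of 6 mice. None of 7 acinar transcription factors was called, with Bhlhb8 (Mist1) at 0.36 and Gata6 at -0.27. None of 6 regenerating (Reg) genes was called: Reg2 read -0.07, -0.90, -2.48 and -3.47 on slide 1 and -4.34, -4.72, -2.20 and -3.26 on slide 2, a spread among mice of one slide as wide as the difference of -1.90 ± 0.74 (limma adjusted p = 0.105). Skeletal muscle genes were detected on no array for 10 of 12 and liver plasma protein genes for 11 of 19, and none of the 4 liver genes tested was called.

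Insulin transcripts were lower in some mice of slide 1 than on slide 2. Ins2 read -2.07, -1.71, -0.60 and -0.13 on slide 1 and 0.38, 0.45, 0.66 and -0.01 on slide 2. The mice of slide 2 were at or above the pool and those of slide 1 below it, with replicates 1 and 2 the lowest. The difference was 1.495 ± 0.38 (limma adjusted p = 0.0277) as reported and 0.53 with normexp and loess (adjusted p = 0.41), and the call was lost without any 1 of replicates 1, 2, 5, 6 and 7 (adjusted p of 0.0529 to 0.0842). Another probe of Ins2, at 1.09, was not called (limma adjusted p = 0.0666). Ins1 read -2.34, -1.99, -0.73 and -0.28 on slide 1 and -0.12, 0.30, 0.59 and -0.28 on slide 2 (difference 1.45 ± 0.42, limma adjusted p = 0.0432). The lowest mouse of slide 2 lay within the values of slide 1, and Ins1 was not called with normexp and loess (adjusted p = 0.214) or without any 1 of 6 mice. Islet hormones summed to 51260 to 204400 red signal units on slide 1 and 171100 to 306600 on slide 2. The prohormone convertase Pcsk1 was higher by 0.64 ± 0.15 (limma adjusted p = 0.0205), the 1 gene called of 8 tested for islet identity and secretion (12.5%, against 15.2% of all genes). Its call was lost with background-subtracted signals, with normexp and loess, and without replicate 2 or replicate 3. Of 5 duct genes tested, Muc1 (0.75) and Krt19 (0.66) were called higher. The other 3 were lower on slide 2, down to -0.53, and not called, and the median of the 5 was -0.08. Muc1 and Krt19 both turned sign with background-subtracted signals, to -0.43 and -0.64, and lost the call without any 1 of 4 and 6 mice.

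Genes of infiltrating immune cells varied among the mice of each slide. Cd8b1, a chain of the CD8 coreceptor, was the 1 called of 4 T cell genes tested (against 15.2% of all genes), lower by 0.86 ± 0.24 (limma adjusted p = 0.0407, and not called without any 1 of replicates 1 to 5, 7 and 8). It read -0.14, -0.22, 0.59 and 0.20 on slide 1 and -1.16, -0.31, -0.42 and -1.14 on slide 2. The other 3 T cell genes tested, of 21 listed, were higher on slide 2 and not called, and the median of the 4 was 0.30. No cytotoxic (1 tested of 11 listed), B cell (1 of 14), plasma cell (5 of 12) or myeloid gene (13 of 22) was called. Nor was any gene of lymphoid stroma (4 of 10), interferon response (8 of 25) or MHC (8 of 16). The listed genes not tested had no probe or were too weak for the filter, so the lack of calls does not cover them. The B cell receptor chain Cd79b ran from -1.54 to 2.57 on slide 1 and from -0.22 to 2.36 on slide 2. The immunoglobulin joining chain Igj likewise ran from 0.68 to 2.40 and from -0.67 to 2.80, the interferon-inducible GTPases Ifi47 and Igtp differed by -1.05 and -1.04, and B2m and H2-K1 differed by -0.60 and -0.48. Among others not called were the chemokines Ccl5 (-0.53) and Ccl19 (-0.19), the lymphotoxin Ltb (-0.23), the plasma cell marker Sdc1 (0.57), and the myeloid genes S100a9 (0.96) and Fcgr1 (-0.78). Hemoglobin was high in single mice. Hbb-b1 read -0.32, -0.90, -0.14 and -0.22 on slide 1 and 2.68, 1.77, -0.08 and 0.22 on slide 2. Replicates 5 and 6 were high, with Hba-a1 alike, while replicates 7 and 8 lay just above slide 1 for Hbb-b1 and within it or just above for Hba-a1. Neither gene was called (limma adjusted p = 0.0726 and 0.122).

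Metabolic and growth genes gave scattered calls. Of all genes 15.2% were called, 8.16% higher and 7.07% lower. Cholesterol synthesis had 3 of 14 genes higher (21.4%). The carnitine palmitoyltransferase Cpt1a, a PPAR target, was higher by 0.91 ± 0.20 (limma adjusted p = 0.0157) and the fatty acid synthase Fasn lower by 0.45 ± 0.12 (limma adjusted p = 0.0348). Cpt1a was not called with background-subtracted signals, with normexp and loess or with a plain statistic. Over the alternatives its difference was as little as 0.37. Of 7 proliferation genes tested 3 were higher (42.9%), among them the replication helicase subunits Mcm6 (1.24 ± 0.31) and Mcm3 (1.09 ± 0.28). The immediate early factor Klf2 was higher by 0.42 at its brightest probe, which read -0.13 with background-subtracted signals and -0.03 with normexp and loess, and was at -0.54 at another probe. Calls were lost without any 1 of 3 mice for Mcm6, 6 for Mcm3, 6 for Fasn and 7 for Klf2. Vim (-0.70) and Dcn (-0.46), of stellate cells and matrix, were the 2 of 12 called (16.7%). The call of Vim was lost without replicate 2 and that of Dcn without any 1 of the 8 mice (adjusted p of 0.0566 to 0.125), and Dcn turned to 0.27 with background-subtracted signals. Large housekeeping groups gave few calls: of 77 ribosomal protein genes 4 were lower (5.19%), led by Fau (-0.55) and Rpl5 (-0.48), and of 46 oxidative phosphorylation genes 2 were higher and 1 lower (6.52%), namely Ndufb8 (0.54), Sdhc (0.51) and Cycs (-0.60). Of 29 proteasome genes 3 were lower (10.3%), among them Psmd11 (-0.52) and Psmc1 (-0.48), and of 14 hypoxia and glycolysis genes 2, Ndrg1 (-0.65) and Ldha (-0.55). Among these, the calls of Ndufb8, Sdhc, Rpl5 and Psmc1 were lost without any 1 of 4 to 6 mice. Signs turned for Ldha to 0.0508 and Ndufb8 to -0.0518 with background-subtracted signals, and for Rpl5 to 0.16 and Ldha to 0.11 with normexp and loess.

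Of 12 reference genes tested 3 were called, all lower (against 15.2% of all genes), with a median of -0.21. Actb (beta-actin) read 0.27, 0.60, 0.64 and 0.63 on slide 1 and -0.23, -0.17, -0.10 and -0.26 on slide 2. All mice of slide 1 were above the pool and all of slide 2 below it, by 0.73 ± 0.12 (limma adjusted p = 0.00578), and the difference was -0.15 and not called with background-subtracted signals (adjusted p = 0.679). Ywhaz was also lower, by 0.72, but was not called with background-subtracted signals or with normexp and loess. Over the alternatives its difference came as close to 0 as -0.02. The probe of Gapdh was well above background on 0 of the 8 arrays and was not tested.

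Many more genes were detected on slide 1 alone than on slide 2 alone, 498 probes against 8. Their direction follows from that choice, and no test is given. Among the 10 brightest of slide 1 were Hspa1a, Pnrc1 (-1.94), Piga (-1.89), Gramd1b (-1.78), Zfp612 (-1.49), Pja2 (-1.27), 2600011C06Rik (Rbm25, -0.996), Slc20a1 (-0.95) and Atp5f1 (-0.50). These counts go with the noisier signals of slide 2, whose part in them was not tested. Among the 8 of slide 2 were the clock genes Nr1d1 and Cry2. Within the main filter, calls were 20.6% of the 2370 probes where the red trend surface of slide 2 was lowest, and 16.2%, 11.6% and 12.2% in the following groups of 2370.

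The green signal of the pool, an identical RNA on all 8 arrays, was compared between the slides in the same way. It cannot show a slide effect confined to red: the trend surface removed from green had a root mean square of 0.04 to 0.12 over the 8 arrays, with no gap between the slides like that in red. Between the arrays of a slide, green signals had a median SD of 0.111 on slide 1 and 0.267 on slide 2 (log2), so that green too was noisier on slide 2. At an adjusted p under 0.05, 48 of the 9480 probes differed between slides in green (0.506%), 46 of them higher on slide 2, and 1292 did at an unadjusted p under 0.05. Of the 48, 13 were also called by ratio, 11 in the same direction. Dbp had the largest green difference. Its pool signal was 1393, 1606, 1601 and 1651 on slide 1 and 5231, 6439, 4882 and 5469 on slide 2, higher by 1.92 on the log2 scale (limma adjusted p = 0.000227) although the RNA was the same. Its red signal was 1297, 1064, 1328 and 1724 on slide 1 and 54080, 66090, 49130 and 56740 on slide 2. Why the same RNA read differently at this probe was not tested. Tef and Nr1d2 differed in green by 0.06 and -0.06. Hspa5 was brighter in green by 0.40 (limma adjusted p = 0.032), opposite to its red signal, and Pdia4 was dimmer by 0.23, in the direction of its ratio. The second probe of Actb, at -1.02 in ratio, was brighter in green by 0.50.

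**Figure D5:**
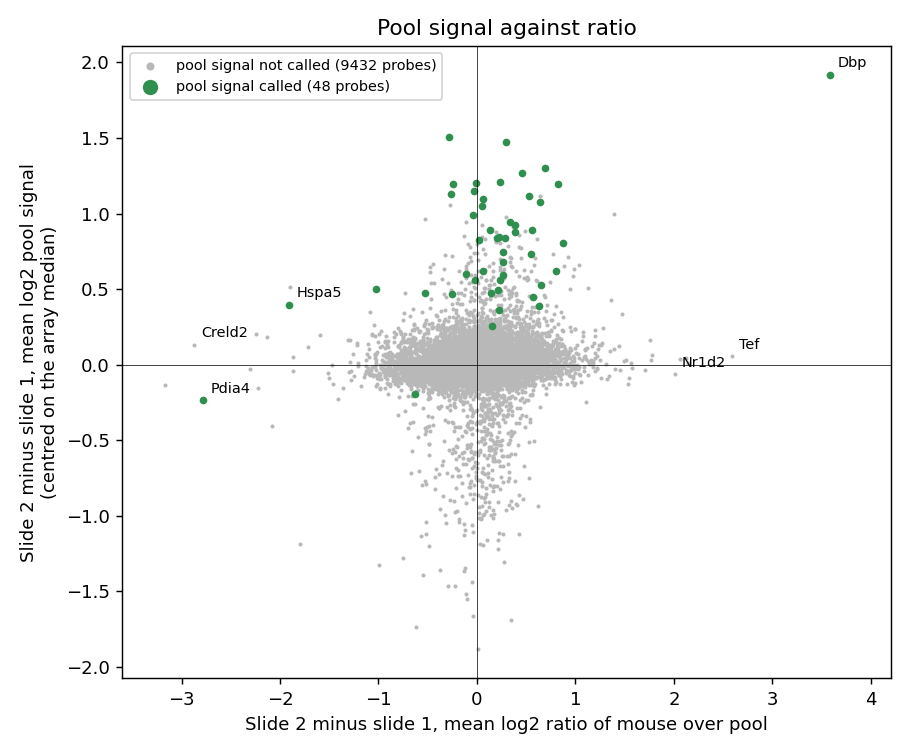
Difference between slides (slide 2 minus slide 1) of the mean log2 ratio (x axis) and of the mean log2 green signal of the pool, centered on the median of each array (y axis), 1 point per tested probe, with the 48 probes called in green in color. Dbp lies at 3.58 on the x axis and 1.92 on the y axis, while Tef and Nr1d2 lie near 0 on the y axis.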

How the data were processed

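Pancreas RNA of 8 NOD mice was measured on Agilent 4×44K two-color arrays against 1 pool of NOD.B10 RNA. The authors used Agilent Feature Extraction 10.7.3.1 on arrays with probe positions on mm8. For every spot the deposited files give a dye-normalized log10 ratio (red divided by green) and for each dye a signal intensity that was background-subtracted, detrended and dye-normalized. The trend surface removed by the authors' software is deposited as a score without unit, and flags mark signals well above background, saturated and irregular spots and stand-in values. Each array holds 43379 spots other than controls for 41174 probes, of which 34850 have a gene symbol.

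From these files, log10 ratios were converted to log2 and spots of a probe were averaged. Probes with red signal well above background on at least 3 of 4 arrays of each slide were fitted with limma 3.58.1 (R 4.3.3) as a two-group comparison of slides, the moderated test of the difference, with Benjamini-Hochberg adjustment over all 9480 probes and calls at an adjusted p under 0.05. The script was tested on simulated data first. The pool's green signal, as log2 intensity centered per array, was tested alike. A gene with several probes is reported by its brightest. Exact two-sided permutation over all 70 splits of the arrays was run for single values. Tables and plots used Python 3.11.15, numpy 2.4.6, pandas 2.3.3 and matplotlib 3.10.9. Promoters came from RefSeq (GRCm38.p6) and were matched by symbol, and no coordinate was converted.

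Named are Dbp, Tef, Nr1d2, Arntl and Hspa5, the tested members of the clock and ER chaperone lists, the 10 largest called rises and falls without overlap between slides, up to 4 members of each other list (called ones first, otherwise the 2 farthest from 0), Actb and Gapdh, and the 10 brightest genes detected on slide 1 only. A few genes that the rule names are counted but not reported here. Members named beyond this rule were chosen after their values were seen. The comparison, the members and the gene lists were chosen with earlier results of these data known.

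Alternatives were median centering, quantile normalization, median-centered background-subtracted signals with a lower limit at the SD of negative controls, normexp (offset 50) with loess, red signal alone, other filters, irregular spots left out, a plain two-sample statistic, array quality weights, other thresholds, other probes, and each mouse left out. Chosen after seeing the data were centering on the spike-ins, background-subtracted signals divided by the trend surface, and arrays with a good grid only (replicates 1 to 4 and 8). No spot was saturated (0 on all arrays), so leaving saturated spots out changes nothing. The number of arrays limits the precision.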

Additional observations from a re-analysis of the deposited data

Results flagged for a closer look

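In a group of 4 arrays, 1 value stood far from the other 3 by Dixon's criterion (the gap to its neighbor as a share of the range) for 10 of 216 groups looked at, and chance flags about 1 in 20 groups. Among clock genes, Tef was 2.62 in replicate 6 against 2.09 to 2.17 in the other mice of slide 2, and the slides stayed apart without it. Among chaperones, Pdia2 was 0.12 in replicate 3 against -0.11 to -0.07 in the other mice of slide 1.

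Bhlhb8 was -0.0011 in replicate 7 and 0.31 to 0.35 in the other mice of slide 2. Reg3a was -0.81 in replicate 1 and -2.15 to -2.01 in the others of slide 1. Trf was -3.20 and Hp 0.15 in replicate 8, against -0.91 to -0.45 and -0.68 to -0.56 in the other mice of slide 2. Fcgr1 was -0.45 in replicate 5 and 0.41 to 0.55 in the other mice of slide 2. Ifi47 was 0.94 in replicate 1 and 1.96 to 2.16 in the other mice of slide 1.

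Psmd11 was 0.79 in replicate 3 and 0.60 to 0.63 in the other mice of slide 1, and Actb 0.27 in replicate 1 and 0.60 to 0.64 in the others. All values are log2 ratios of NOD mouse over pool.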

How the results depend on the processing

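Calls numbered 762 higher and 675 lower as reported, and stayed within 1.5 times of these in each direction with medians centered, quantile normalization, normexp and loess, red signal alone, both dyes detected on all arrays, detection on at least 4 of 8 arrays, irregular spots left out, a plain statistic, quality weights, and background-subtracted signals divided by the trend surface. On arrays with a good grid, where slide 2 is replicate 8 alone and is assumed to vary like the mice of slide 1, 579 were higher and 821 lower. Lower calls were 1857 with background-subtracted signals, median-centered. Without a filter 370 were higher and 367 lower of 34850, at 2-fold and an adjusted p under 0.01 there were 50 and 50, and at 1.5-fold 453 and 409. Centering on the spike-ins gave 2129 higher and 145 lower. With 1 mouse left out, higher calls ran from 301 to 865 and lower calls from 261 to 783, and the total of 1437 fell to 951 without replicate 1, 562 without replicate 2, 799 without replicate 3, 856 without replicate 4 and 845 without replicate 7. Pool probes called in green numbered 48 as reported, 28 without centering, 31 with both dyes detected on all arrays, 7 at the stricter thresholds, and 20 to 188 with 1 mouse left out (20 without replicate 2 or 4, 31 without 5, 188 without 6, 21 without 8).

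Over 108 genes of the main filter and their alternatives, 2101 of 2614 values kept direction and side of the threshold, 377 lost the call, 53 gained it and 83 turned sign. Of 68 called genes, 16 kept the call under every alternative and 52 kept their direction. Leaving out 1 mouse ended at least 1 call each of Bhlhb2, Canx, Sdf2l1, 4632413K17Rik, Spcs1, Ssr4, Ssr1, Slc6a9, Psat1, Ctrl, Ins2, Ins1, Pcsk1, Muc1, Krt19, Cd8b1, Fasn, Klf2, Mcm6, Mcm3, Vim, Dcn, Ndufb8, Sdhc, Rpl5 and Psmc1, with adjusted p up to 0.125. The lost calls numbered 18, 25, 18, 17, 16, 14, 16 and 5 without replicates 1 to 8 in turn.

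Signs that turned are given as the difference under the alternative, and their cause was not tested. With background-subtracted signals, median-centered, these were Csnk1d 0.0118, Csnk1e -0.019, Bhlhb2 -0.14, Pbef1 0.0855, Tspan4 -0.0477, Canx 0.23, P4hb -0.15, Dnajc10 0.66, Ppib 0.64, Fkbp11 -0.43, Fkbp2 -0.42, Spcs1 -0.0255, Ssr4 -0.56, Ela2a -0.0583, Ctrl -0.0732, Bhlhb8 -0.20, Muc1 -0.43, Krt19 -0.64, Sdc1 -0.17, Ccl19 0.53, Ifi47 0.044, Trf 0.0512, Klf2 -0.13, Cryab -0.0107, Dcn 0.27, Ndufb8 -0.0518 and Ldha 0.0508. With normexp and loess they were Csnk1d 0.0906, Bhlhb2 -0.0265, Pbef1 0.0672, Canx 0.26, Dnajc10 0.46, Ppib 0.85, Fkbp11 -0.34, Fkbp2 -0.31, Ssr4 -0.44, Bhlhb8 -0.11, Muc1 -0.059, Krt19 -0.20, Sdc1 -0.0522, Igj 0.0784, Ccl19 0.31, Ifi47 0.0563, Trf 0.10, Klf2 -0.0282, Dcn 0.34, Rpl5 0.16 and Ldha 0.11. Centered on the spike-ins, they were Csnk1d 0.0168, Tsc22d3 0.0649, Por 0.11, Dnajc10 0.23, Ero1lb 0.20, Ppib 0.17, Gata6 0.0031, Ltb 0.039, Ccl19 0.0751 and Trf 0.0917. On arrays with a good grid (4 mice against replicate 8 alone) P4hb was -0.042, Ero1l -0.10, Ppib 0.0653 and Plvap -0.14, with quality weights Dnajc10 was 0.0793 and Trf 0.11, and on the red signal alone Ppib was 0.0073. At another probe Ppib was 0.07, 4632413K17Rik -0.10, Muc1 -0.11, H2-K1 0.28 and Klf2 -0.54. With 1 mouse left out Dnajc10 ran from -0.16 to 0.13, Trf from -0.47 to 0.44, Ero1l from -0.0595 to 0.17, Igj from -0.85 to 0.31, P4hb from -0.0255 to 0.0906, Cd79b from -0.38 to 0.99, Ltb from -0.45 to 0.0631 and Ccl19 from -0.52 to 0.15.

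No paired analysis was possible because the mice of the slides carry different numbers, 1 to 4 and 5 to 8, and no label ties a mouse of one slide to a mouse of the other. Both dyes were noisier on slide 2, with a median SD between arrays (log2) of 0.358 against 0.204 on slide 1 in red and of 0.267 against 0.111 in green. All mice of a slide share its hybridization and scan, and a difference between slides cannot be told apart from a difference between their mice.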

Other observations

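A probe with no gene name (transcript TC1682954 in the files, chr10:86120944-86121003, mm8) had a larger fall than any gene with a symbol among the 9480 probes tested, with a difference of -3.17 ± 0.317 (limma adjusted p = 0.000836). It read 2.06, 3.24, 2.98 and 3.87 on slide 1 and -0.32, -0.10, -0.31 and 0.21 on slide 2, so that only the mice of slide 1 were well above the pool. Its position is beside that of the Hsp90b1 probe (chr10:86120824-86120883, mm8), whose difference was -2.24. Whether both probes read the same transcript was not tested. Of 1353 genes with more than 1 probe tested, 90 had at least 2 called probes, and in 89 of them all called probes had 1 direction, Aff1 being the exception.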
